A study of Mus musculus with 6 samples.

Results

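The Myc, Max and Mxd network genes were followed through 6 libraries of mouse pluripotent cells. The members were taken by gene symbol from the deposited tables. Myc, Mycn, Mycl1, Max, Mxd1, Mxi1, Mxd3, Mxd4, Mnt and Mga were all found, as 10 of 22558 gene names. H2A.X Cre KO embryonic stem cells (ESC) were set against H2A.X Flox Flox ESC, in which the gene is only flanked by recombination sites and which the design text calls wild type. Both are of 129Sv background and derived from embryo. Induced pluripotent stem cells (iPSC) of 129Sv/C57 mix background came in pairs labelled 4N- and 4N+, 1 pair from peritoneal fibroblasts (PF) and 1 pair from tail tip fibroblasts (TTF). From knowledge outside the labels, 4N refers to tetraploid complementation, in which cells placed in a tetraploid embryo must build the fetus by themselves. The iPSC labels carry the name H2A.X but give no genotype, and the sources used here do not name the reprogramming factors, so a transgene-derived Myc transcript could not be told apart from the cells' own.

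All cultures were at passage 25. They had grown on feeder cells with LIF, the cytokine that keeps mouse stem cells undifferentiated, and were moved to gelatin before RNA was taken to leave the feeders behind. Each condition is 1 line and 1 library, and the labels do not say whether the KO line is 1 clone. Each of the 3 tables holds 1 pair of libraries, so comparisons were made within a table, and an order of levels over all 6 libraries rests on tables that may have been scaled separately. Values are FPKM, fragment numbers divided by transcript length and depth, which allows levels of different genes to be compared per length. Effective depth was 39058797 to 61180438 fragments, so that a transcript of 2000 bp at 1 FPKM gave 70.1 to 110 fragments. H2afx, the gene of H2A.X, had 6.18 FPKM in the KO ESC against 34.9 FPKM in the Flox/Flox ESC, the direction of the labels, and at 65.3 to 75.2 FPKM in the 4 iPSC lines. All 6 pluripotent cell markers (Pou5f1, Nanog, Sox2, Zfp42, Esrrb and Klf4) reached 1 FPKM in every library, with sums of 388 to 970 FPKM.

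MYC, MYCN and MYCL are transcription factors of the basic helix-loop-helix leucine zipper class. Each binds DNA as a heterodimer with MAX, typically at the E-box CACGTG, and activates genes of ribosome production, metabolism and cell growth. The MXD proteins and MNT compete for MAX and recruit the SIN3 and histone deacetylase corepressors to the same sites. MGA, which also carries a T-box domain, pairs with MAX in a variant Polycomb complex, PRC1.6, that keeps germ-cell genes silent in mouse ESC. In mouse ESC, LIF signalling maintains Myc, and Myc and Mycn can each support self-renewal.

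The E-box was searched for in the promoters of the members, because factors of the network bind it. The windows that hold it are shown without a test. RefSeq promoters on GRCm38.p6, 250 bases before to 50 bases after each start, matched 9 members with 11 promoters. CACGTG reads the same on both strands. It occurred in Max, Mxd4 and Mnt, and in 2349 of 32851 mouse promoters (7.15%). The windows around the motif are printed 5′ to 3′ on the gene's strand with the motif in capitals. The motif starts 3 bases upstream of the start site in Max (chr12:76962199-76962498, minus strand), 219 bases upstream in Mxd4 (chr5:34187661-34187960, minus strand) and 123 bases upstream in Mnt (chr11:74830674-74830973, plus strand).
Max: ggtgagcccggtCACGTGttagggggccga
Mxd4: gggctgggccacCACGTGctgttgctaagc
Mnt: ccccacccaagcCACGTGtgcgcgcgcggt

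No CACGTG lay in these windows of Mycn, Mycl1, Mxd1, Mxi1, Mxd3 or Mga. The whole promoters of Mycn (chr12:12941787-12942086, minus strand) and Mxd4 are shown because these 2 genes differed most between the ESC lines, in opposite directions. The capitals in Mxd4 mark the E-box. A match is a description of the letters and not evidence of binding.
Mycn: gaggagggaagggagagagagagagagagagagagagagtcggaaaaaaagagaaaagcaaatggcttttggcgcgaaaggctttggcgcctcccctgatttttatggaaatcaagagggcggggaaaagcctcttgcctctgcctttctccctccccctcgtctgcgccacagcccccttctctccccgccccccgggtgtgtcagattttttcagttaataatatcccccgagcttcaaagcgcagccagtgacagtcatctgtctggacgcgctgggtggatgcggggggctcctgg
Mxd4: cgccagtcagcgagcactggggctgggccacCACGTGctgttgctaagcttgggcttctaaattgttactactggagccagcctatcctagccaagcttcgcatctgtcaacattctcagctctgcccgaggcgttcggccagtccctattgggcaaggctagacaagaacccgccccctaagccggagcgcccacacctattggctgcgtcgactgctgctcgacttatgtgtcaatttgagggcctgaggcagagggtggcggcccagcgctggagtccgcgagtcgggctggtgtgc

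Mycn, Max and Mga were the 3 most abundant members in every library, in varying order, and Mxd1 and Mxd4 were among the 3 least abundant members in each. Of the 10 members, 8 reached 1 FPKM in every library. Mxd1 and Mxd4 did not. Between the lowest and the highest library, Mxi1 differed 1.34-fold, Max 1.39-fold, Mycl1 1.41-fold and Mnt 1.5-fold, whereas Mxd4 differed 5.77-fold, Myc 3.94-fold and Mycn 2.75-fold. With 1 library per condition there is no spread between cultures, so the order of neighbouring levels can be read only against counting error.

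**Figure D1:**
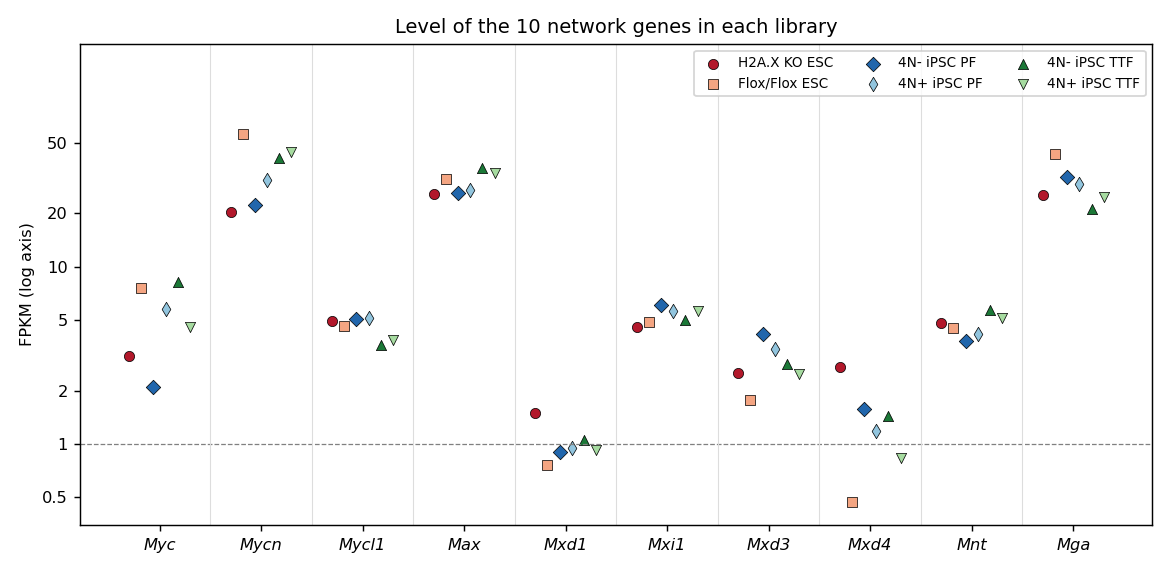
FPKM (log axis) of the 10 network genes in each of the 6 libraries, with 1 point per library and the dashed line at 1 FPKM. Mycn, Max and Mga lie at 20.3 FPKM or more in every library, and Myc, Mycn and Mxd4 show the widest scatter between libraries.

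Mycn (chromosome 12, 12942899 to 12948642 on mm9), the family member that predominates in many embryonic progenitors, had 20.3 FPKM in the KO ESC against 55.9 FPKM in the Flox/Flox ESC. It had 22.3 FPKM in the 4N- PF line against 30.6 FPKM in the 4N+ PF line, and 41.2 FPKM in the 4N- TTF line against 44.4 FPKM in the 4N+ TTF line. The KO ESC gave the lowest and the Flox/Flox ESC the highest of the 6 values, and the 4N- and 4N+ lines overlapped across tables. The KO value was 2.75-fold lower (conditional exact binomial 95% interval 2.62 to 2.90, from an estimated 1958 and 6883 fragments). This interval and those that follow cover counting error only. They rest on the length of each gene's shortest coding transcript in an annotation of GRCm38, a later build. In bulk RNA, fewer cells that make a transcript and less of it per cell cannot be told apart. The 4N- value was 1.37-fold lower (1.30 to 1.45) in the PF pair and 1.08-fold lower (1.04 to 1.11) in the TTF pair.

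Myc (chromosome 15, 61816896 to 61821916) had 3.14 FPKM in the KO ESC against 7.61 FPKM in the Flox/Flox ESC. In the PF pair it had 2.09 FPKM in the 4N- line against 5.74 FPKM in the 4N+ line, and in the TTF pair 8.21 FPKM in the 4N- line against 4.57 FPKM in the 4N+ line. The lowest and the highest of the 6 values thus both belonged to 4N- lines, and the 4N- values lay on both sides of the 4N+ values. Myc was 2.43-fold lower in the KO ESC (2.07 to 2.87, from 198 and 614 fragments). It was 2.75-fold lower in the 4N- line of the PF pair (2.27 to 3.33, from 150 and 412 fragments). It was 1.80-fold higher in the 4N- line of the TTF pair (1.6 to 2.03, from 813 and 437 fragments). The opposite directions in the 2 iPSC pairs were not tested, since each rests on 1 line per label.

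Mycl1 (chromosome 4, 122673342 to 122679723), listed by RefSeq as Mycl and encoding the L-MYC member of the family, had 4.97 FPKM in the KO ESC against 4.65 FPKM in the Flox/Flox ESC. It had 5.06 against 5.12 FPKM in the 4N- and 4N+ PF lines, and 3.63 against 3.84 FPKM in the 4N- and 4N+ TTF lines. All 3 ratios had intervals that included 1, at 1.07 (0.957 to 1.19), 0.988 (0.888 to 1.1) and 0.946 (0.850 to 1.05), so any difference was not detectable at this depth.

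Max (chromosome 12, 78038256 to 78063235), the shared partner, had 25.8 FPKM in the KO ESC against 31.2 FPKM in the Flox/Flox ESC. It had 25.9 against 27.0 FPKM in the 4N- and 4N+ PF lines, and 35.8 against 33.8 FPKM in the 4N- and 4N+ TTF lines. Its KO ratio was 0.826 (0.778 to 0.878), the PF ratio 0.962 (0.904 to 1.02) and the TTF ratio 1.06 (1.01 to 1.11). The level of Max therefore varied far less than those of Myc and Mycn.

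Mxd4 (chromosome 5, 34519229 to 34530359), which encodes an MXD repressor described mainly in differentiating cells, showed the widest range of the members. It had 2.73 FPKM in the KO ESC against 0.473 FPKM in the Flox/Flox ESC, 1.57 FPKM in the 4N- PF line against 1.18 FPKM in the 4N+ PF line, and 1.44 FPKM in the 4N- TTF line against 0.832 FPKM in the 4N+ TTF line. The KO value was the highest and the Flox/Flox value the lowest. Both 4N- values lay above both 4N+ values, which held for 1 of the 10 members and for 3.96% of the 11985 genes tested in the iPSC lines. The reverse order held for none of the members and for 12.5% of those genes. The FPKM ratio was 5.77 in the ESC (4.54 to 7.32, from 391 and 87 fragments), 1.33 in the PF pair (1.1 to 1.62) and 1.73 in the TTF pair (1.44 to 2.09). Mxd4 passed the 1 FPKM minimum only through the KO line and, in the TTF pair, only through the 4N- line. It shares 514 of its 8483 exon bases with the antisense transcript Gm42846, and since strand use is not stated, fragments of the 2 cannot be told apart there.

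Mxd1 (chromosome 6, 86597039 to 86619153), the founding MXD gene, had 1.5 FPKM in the KO ESC against 0.765 FPKM in the Flox/Flox ESC. The 4 iPSC values lay between 0.905 and 1.05 FPKM. The KO value was thus the highest of the 6, and the ESC ratio was 1.96 (1.61 to 2.39). Mxd1 passed the 1 FPKM minimum only through the KO line in the ESC and only through the 4N- line in the TTF pair. In the iPSC the ratios were 0.947 (0.768 to 1.17) in the PF pair and 1.12 (0.945 to 1.34) in the TTF pair, both with 1 inside the interval.

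Mxd3 (chromosome 13, 55423416 to 55431091), an MXD gene described in dividing cells, had 2.52 FPKM in the KO ESC against 1.78 FPKM in the Flox/Flox ESC. It had 4.15 against 3.45 FPKM in the 4N- and 4N+ PF lines, and 2.84 against 2.49 FPKM in the 4N- and 4N+ TTF lines. Its ESC ratio was 1.42 (1.07 to 1.88), and the iPSC ratios of 1.20 (0.978 to 1.48) and 1.14 (0.924 to 1.41) had 1 inside the interval. Mxd3 shares 105 of its 2369 exon bases with Prelid1 on the other strand, a gene at 60.7 to 72.0 FPKM, so its low values are uncertain to that extent.

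Mxi1 (chromosome 19, 53384996 to 53450300), which encodes the repressor also known as MXD2, had 4.56 FPKM in the KO ESC against 4.89 FPKM in the Flox/Flox ESC, and 4.99 to 6.10 FPKM in the iPSC. All 3 of its ratios had 1 inside the interval, at 0.933 (0.746 to 1.16), 1.08 (0.891 to 1.32) and 0.884 (0.739 to 1.05). Its coding transcripts run from 1018 to 2627 bp, and a length above the shortest would narrow these intervals. Mxi1 shares 194 of its 6823 exon bases with Gm10197 on the other strand. Mnt (chromosome 11, 74644426 to 74659227), the broadly expressed MAX-binding repressor, had 4.83 FPKM in the KO ESC against 4.52 FPKM in the Flox/Flox ESC, and 3.80 to 5.71 FPKM in the iPSC. Its ratios were 1.07 (0.973 to 1.17), 0.915 (0.827 to 1.01) and 1.12 (1.04 to 1.20). In the Flox/Flox library both repressor genes stood above Mxd1, Mxd3 and Mxd4.

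Mga (chromosome 2, 119722964 to 119795317), the T-box partner of MAX, had 25.5 FPKM in the KO ESC against 43.1 FPKM in the Flox/Flox ESC. It had 31.9 FPKM in the 4N- PF line against 29.2 FPKM in the 4N+ PF line, and 21.0 FPKM in the 4N- TTF line against 24.8 FPKM in the 4N+ TTF line. The Flox/Flox ESC stood highest, and the 4N- values lay outside the 4N+ values on both sides. The KO value was 1.69-fold lower (1.66 to 1.73, from 13038 and 28137 fragments). The ratio was 1.09 (1.07 to 1.12) in the PF pair and 0.845 (0.828 to 0.863) in the TTF pair. The opposite directions were not tested against each other.

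**Figure D2:**
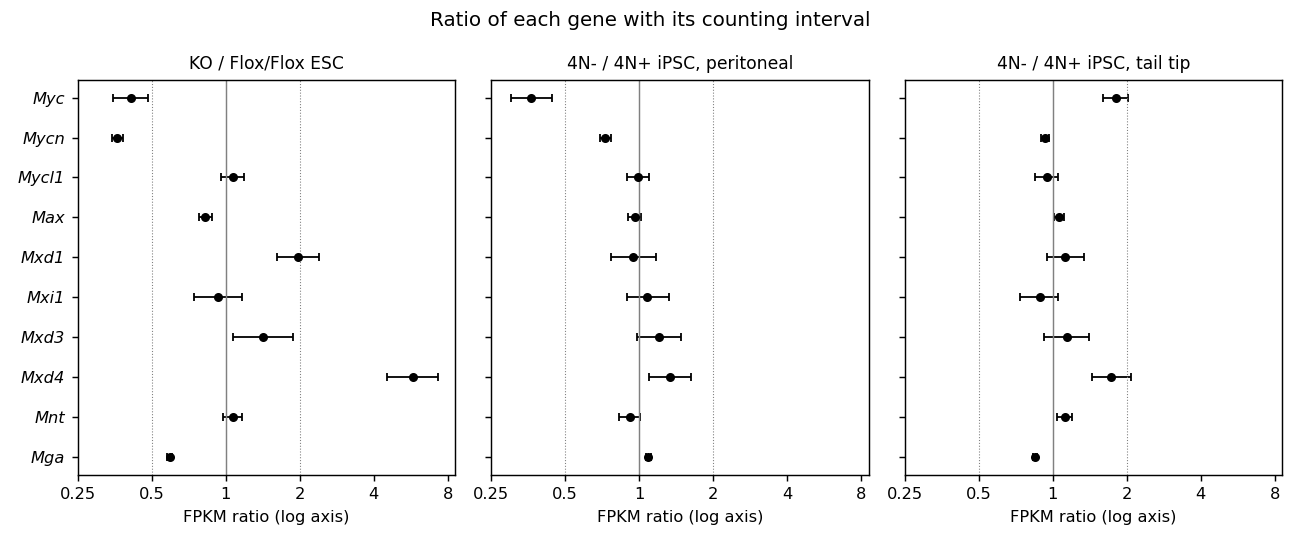
FPKM ratios (log axes) of the 10 genes in the 3 comparisons, each KO over Flox/Flox or 4N- over 4N+. Points are ratios, bars are 95% conditional binomial intervals that cover counting error only, and dotted lines mark 2-fold. Mycn and Myc lie below the lower line and Mxd4 above the upper line in the ESC, and Myc lies on opposite sides of 1 in the 2 iPSC pairs.

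On the log2(FPKM + 1) scale, which understates the change of low genes, 1 of 10 measured members was at least 2-fold higher in the KO ESC and 2 were at least 2-fold lower. Mxd4 had a difference of 1.34, Mycn of -1.42 and Myc of -1.06. Of all 12086 genes measured there, at 1 FPKM in at least 1 library, 7.49% were 2-fold or more higher and 3.72% 2-fold or more lower. The genes that reached 5 FPKM in both libraries had a median of -0.20. Relative to it Mxd4 stood at 1.54, Mycn at -1.21, Myc at -0.85, Mga at -0.53, Mxd1 at 0.71 and Max at -0.06, so that Myc was no longer past 2-fold. Centring changed the numbers over all genes from 905 higher and 449 lower to 1412 higher and 202 lower. The authors' deposited table called none of the members, and 1.44% of 14589 genes. The authors' deposited table gives p = 0.011 and q = 0.256 for Mxd4, p = 0.0113 and q = 0.257 for Mycn, and p = 0.0854 and q = 0.664 for Myc. These p-values, and the authors' for the iPSC pairs, each set 1 library against 1 library. They cannot measure the spread between lines.

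In the PF pair, where Mxd1 was under 1 FPKM in both lines and so not measured, 1 of 9 members, Myc at -1.13, was past 2-fold in the 4N- line, on the lower side, and none was 2-fold higher. Over 11606 genes these shares were 0.974% and 0.577%. The median of genes at 5 FPKM in both libraries was at -0.17, and relative to it Myc stood at -0.96. Centring moved the numbers over all genes from 67 higher and 113 lower to 91 higher and 87 lower. The authors' deposited table gives p = 0.00111 and q = 0.139 for Myc and called none of the members, against 0.537% of 13956 genes. In the TTF pair none of the 10 members was 2-fold different, and over 11354 genes 0.185% were 2-fold higher and 0.564% 2-fold lower in the 4N- line. Myc had the largest difference at 0.73, with p = 0.000346 and q = 0.0933 in the authors' deposited table, which called none of the members and 0.301% of 14289 genes.

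Across the 3 comparisons, which share no library, Mxd3 and Mxd4 were higher in the KO or 4N- line each time and Mycn was lower each time. Among 10839 genes measured in all 3 comparisons, 8.70% were higher and 21.8% lower in each. These directions include differences that were within counting error, such as those of Mxd3 in the iPSC.

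The 4 iPSC libraries allowed 1 test with replicate lines. In limma's moderated test with parental cells as a block, which leaves 1 residual degree of freedom per gene, none of the 10 members was called and none had an unadjusted p under 0.05. Mxd4 came closest, with a 4N- minus 4N+ difference of 0.33 ± 0.17 (SE, limma adjusted p = 0.999), and was higher in both pairs. Mycn had a difference of -0.27 ± 0.19 (SE, limma adjusted p = 0.999) and was lower in both pairs. Myc had -0.20 ± 0.32 (SE, limma adjusted p = 0.999), with 1 pair in each direction. The other 7 members lay between -0.05 and 0.17. Over 11985 genes, 14 (0.117%) were called, 5 higher and 9 lower, and 2 higher and 9 lower after centring, with 446 at an unadjusted p under 0.05. A p that misses the threshold does not show that the labels are alike for these genes.

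The summed FPKM of Myc, Mycn and Mycl1 was 28.4 in the KO ESC against 68.2 in the Flox/Flox ESC. It was 29.5 in the 4N- PF line against 41.5 in the 4N+ PF line, and 53.1 in the 4N- TTF line against 52.8 in the 4N+ TTF line. The summed FPKM of Mxd1, Mxi1, Mxd3, Mxd4 and Mnt stayed within a narrower range, at 16.1 in the KO ESC against 12.4 in the Flox/Flox ESC, 16.5 against 15.4 in the 4N- and 4N+ PF lines, and 16.0 against 15 in the 4N- and 4N+ TTF lines. The ratio of the MYC-family sum to the MXD and MNT sum was accordingly 1.76 in the KO ESC against 5.49 in the Flox/Flox ESC. In the iPSC it was 1.78 against 2.70 in the 4N- and 4N+ PF lines and 3.31 against 3.52 in the 4N- and 4N+ TTF lines. These are sums of transcript levels and do not measure protein or dimer amounts.

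Mycn supplied most of the MYC-family sum in every library, from 71.5% in the KO ESC to 84.1% in the 4N+ TTF line. The share of Myc was 11% in the KO ESC and 11.2% in the Flox/Flox ESC, so both genes stood lower by similar factors there. In the iPSC the share of Myc was 7.08% in the 4N- PF line against 13.8% in the 4N+ PF line, and 15.5% in the 4N- TTF line against 8.65% in the 4N+ TTF line. Mycn exceeded Myc by 10.7-fold in the 4N- PF line against 5.34-fold in the 4N+ PF line, and by 5.02-fold in the 4N- TTF line against 9.72-fold in the 4N+ TTF line. Mxd4 made up 16.9% of the MXD and MNT sum in the KO ESC against 3.81% in the Flox/Flox ESC.

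**Figure D3:**
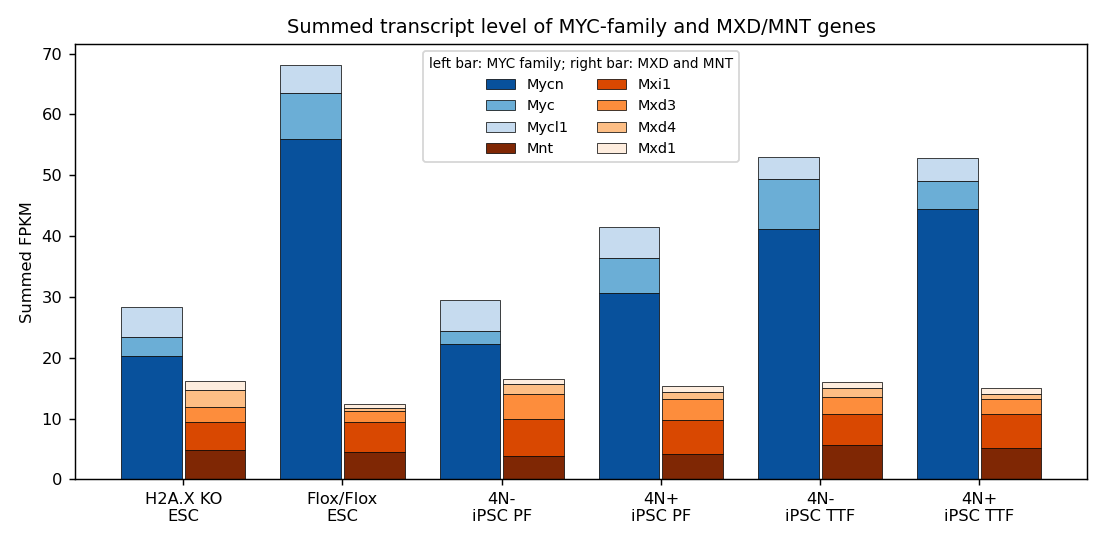
Summed FPKM of the MYC-family genes (left bar) and of the MXD genes and Mnt (right bar) in each library, stacked by gene. The left bars run from 28.4 FPKM in the KO ESC to 68.2 FPKM in the Flox/Flox ESC, while the right bars stay between 12.4 and 16.5 FPKM.

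Markers of other cell types also differed within the pairs. The summed FPKM of 8 trophoblast markers (Krt8, Krt18, Hand1, Gata2, Gata3, Cdx2, Elf5 and Ascl2) was 891 in the KO ESC, with 6 of 8 at 1 FPKM, against 36.7 in the Flox/Flox ESC, with 3 of 8. Most of the KO sum came from Krt18, which gave 659 FPKM of it, with a further 188 FPKM from Krt8. Of the 6 trophoblast markers measured, 5 were at least 2-fold higher in the KO ESC on the log2(FPKM + 1) scale. The other, Ascl2, had a difference of -0.08. Over all measured genes 7.49% were at least 2-fold higher. Of the 6 markers, 3 were under 1 FPKM in the Flox/Flox ESC and counted only through the KO line. Cdx2, an early factor of the trophoblast lineage, stayed below 1 FPKM, at 0.765 FPKM in the KO ESC against 0.093 FPKM in the Flox/Flox ESC. The pluripotent cell markers summed to 388 FPKM in the KO ESC against 611 FPKM in the Flox/Flox ESC. The 7 fibroblast or feeder markers summed to 10.8 FPKM in the KO ESC against 2.79 FPKM in the Flox/Flox ESC, and the 6 extraembryonic endoderm markers to 5.16 against 2.11 FPKM. None of these markers was listed at 0 in the KO ESC, against Foxa2 and Postn in the Flox/Flox ESC. Whether other cell types were present in the KO ESC was not tested. Nor was their part in its lower Mycn, Myc and Mga and its higher Mxd4 and Mxd1. In the PF pair, 1 of 7 fibroblast or feeder markers reached 1 FPKM in the 4N- line against 6 of 7 in the 4N+ line. Their sums were 5.94 against 63.3 FPKM, with Postn listed at 0 in the 4N- line. S100a4 gave 40.1 FPKM of the 4N+ sum and shares 56.3% of its 50-base stretches with another annotated gene. Col1a2 had 0.0228 FPKM in the 4N- line against 5.41 FPKM in the 4N+ line, and Acta2 0.872 against 6.29 FPKM. Their largest such shares are 0% and 0.352%. Of the 6 fibroblast or feeder markers measured in this pair, 0 were higher in the 4N- line. The part of fibroblasts or feeders in the lower Myc of the 4N- line was not tested. For the TTF pair the fibroblast or feeder sums were 9.05 FPKM in the 4N- line against 7.93 FPKM in the 4N+ line. The trophoblast sums were 55.6 against 40.4 FPKM and the extraembryonic endoderm sums 8.22 against 5.13 FPKM. The part of these cell types in the higher Myc of the 4N- TTF line was not tested.

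The network's targets were read as lists, by counts and medians of the log2(FPKM + 1) differences without a list test, and counts past 2-fold are on that scale. Of 43 measured growth genes known to be activated by MYC, 40 were lower in the KO ESC, 7 of them at least 2-fold, and 3 were higher. The median was -0.59, or -0.38 relative to the shift of genes at 5 FPKM. In that background of 6901 genes 65.2% were lower and 4.33% at least 2-fold lower. Hspd1, the mitochondrial chaperonin HSP60, had 47.5 FPKM in the KO ESC against 156 FPKM in the Flox/Flox ESC. The nucleolar proteins nucleolin and nucleophosmin were at 145 against 381 FPKM (Ncl) and 357 against 908 FPKM (Npm1), and Dkc1, the pseudouridine synthase dyskerin, at 43.9 against 101 FPKM. Hspd1 shares 42.8% of its 50-base stretches with another annotated gene and is uncertain to that extent.

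These growth genes were lower in the 4N- PF line for 39 of 43, with none past 2-fold, and with a median of -0.38 and of -0.21 after centring. In that pair 75.0% of genes at 5 FPKM in both libraries were lower. Nme1, a nucleoside diphosphate kinase gene, had 104 FPKM in the 4N- line against 182 FPKM in the 4N+ line, and Pes1, of ribosome assembly, 37.6 against 61.8 FPKM. In the TTF pair 30 of the 43 genes were higher in the 4N- line and 13 lower, with a median of 0.10 and none past 2-fold. Of genes at 5 FPKM in both libraries of that pair, 53.2% were higher. Srm, the spermidine synthase gene, had 82.0 FPKM in the 4N- line against 64.2 FPKM in the 4N+ line, and Hk2, a hexokinase gene, 58.1 against 71.1 FPKM. The genes at 5 FPKM in both libraries had medians of -0.20, -0.17 and 0.01 in the ESC, PF and TTF comparisons, the same signs as the growth genes.

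Of 8 genes listed as repressed by MYC, some of them through the factor MIZ1, 6 stood higher in the KO ESC, with 3 past 2-fold. The median was 0.73, or 0.94 after centring, and became 0.52 over the 6 genes at a minimum of 5 FPKM. The 2 lower genes were the cell cycle inhibitor gene Cdkn1b, with a difference of -0.88, and Ndrg2, with -0.02. Over all measured genes 48.3% were higher and 7.49% past 2-fold on that side, and 1 of the 8 was under 1 FPKM in the Flox/Flox ESC and counted only through the KO line. Clu, the clusterin gene, had 40.6 FPKM in the KO ESC against 7.77 FPKM in the Flox/Flox ESC, and Cdkn1a, the cell cycle inhibitor p21 and also a target of p53, 50.8 against 19.0 FPKM. The third was the cell cycle inhibitor gene Cdkn2b, below 5 FPKM, with a difference of 1.22. Of these genes, 2 of 8 were higher in the 4N- PF line (median -0.11, and 0.06 after centring), against 31.5% of all genes measured there. Cdkn1a had the largest difference, at 24.2 against 16.0 FPKM. For the TTF pair the count was 2 of 7 (median -0.19), against 50.1% of all genes measured there. Ndrg1 had 15.2 FPKM in the 4N- line against 22.0 FPKM in the 4N+ line, and Cdkn1b, the inhibitor p27, 8.28 against 11.4 FPKM.

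**Figure D4:**
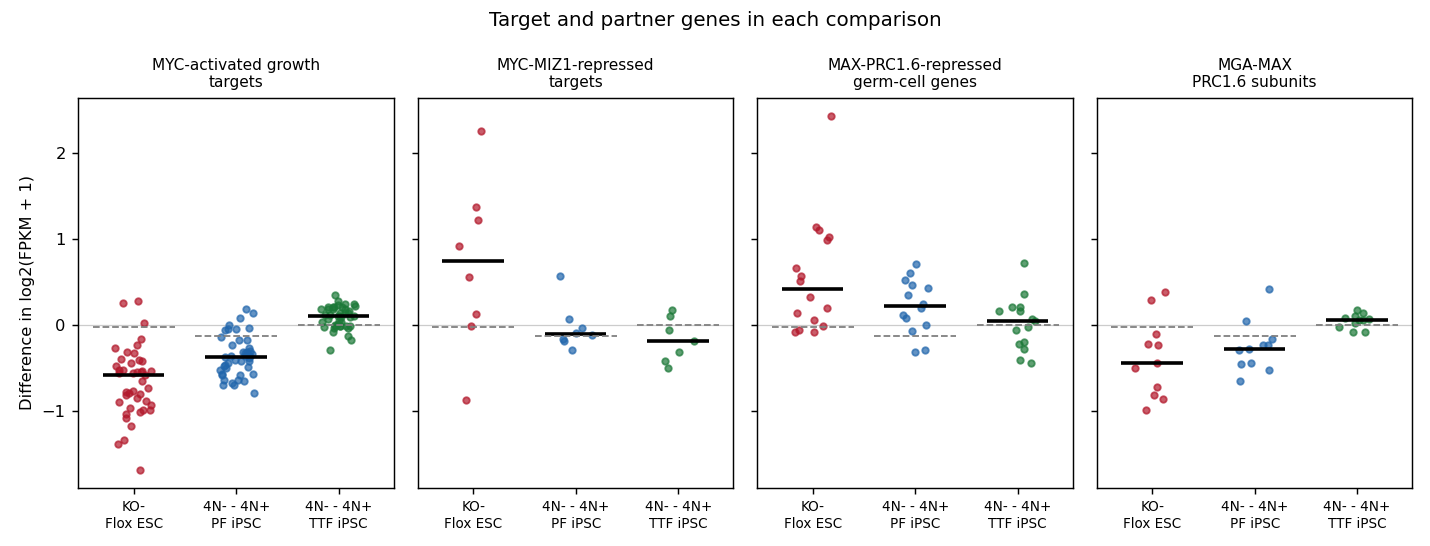
Differences in log2(FPKM + 1), KO minus Flox/Flox or 4N- minus 4N+, for the measured genes of 4 lists, with 1 point per gene. Solid bars are list medians and dashed lines the median of all measured genes. The growth genes have medians of -0.59, -0.38 and 0.10 in the ESC, PF and TTF comparisons.

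The PRC1.6 subunits that work with MGA and MAX were lower in the KO ESC in 9 of 11 cases, none of them past 2-fold on the log2(FPKM + 1) scale, with a median of -0.44 and of -0.24 after centring. Of genes at 5 FPKM in both libraries 65.2% were lower. Pcgf6, the subunit that defines this Polycomb complex, had 21.0 FPKM in the KO ESC against 42.6 FPKM in the Flox/Flox ESC, a difference of -0.99, and Tfdp1, the dimer partner of E2F6, 23.9 against 44.3 FPKM. In the PF pair 9 of 11 were lower in the 4N- line (median -0.28, and -0.12 after centring), against 75.0% of genes at 5 FPKM, with Yaf2 at 3.16 against 5.58 FPKM and Cbx3, a heterochromatin protein gene, at 5.88 against 8.90 FPKM. The TTF pair had 8 of 11 higher in the 4N- line (median 0.05), against 53.2% of genes at 5 FPKM, with Tfdp1 at 30.5 against 27.1 FPKM.

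Of 16 germ-cell genes that MAX and PRC1.6 silence in mouse ESC, 12 were higher in the KO ESC, 4 of them at least 2-fold, and 4 were lower. Over all measured genes 48.3% were higher and 7.49% at least 2-fold higher, and 2 of the 16 were under 1 FPKM in the Flox/Flox ESC and counted only through the KO line. The median of 0.42 was 0.62 after centring and became 0.16 over the 10 genes at a minimum of 5 FPKM. Taf7l, a testis variant of a general transcription factor subunit, had 16.9 FPKM in the KO ESC against 2.31 FPKM in the Flox/Flox ESC. The piRNA pathway gene Mael had 20.2 against 8.91 FPKM, the germ-cell factor gene Sohlh2 had 5.27 against 2.09 FPKM, and Tex101, below 5 FPKM, had a difference of 1.14. The PF pair had 10 of 14 higher in the 4N- line (median 0.21, and 0.38 after centring), against 31.5% of all genes measured there, with Zcwpw1, a reader of meiotic histone marks, at 28.1 against 16.7 FPKM and the meiotic cohesin gene Stag3 at 17.9 against 11.5 FPKM. The TTF pair had 8 of 15 higher in the 4N- line (median 0.04, and -0.05 at a minimum of 5 FPKM), against 50.1% of all genes measured there. Stra8, which drives entry into meiosis, had 36.6 FPKM in the 4N- line against 21.9 FPKM in the 4N+ line, and Dazl, an RNA-binding protein gene of germ cells, 11.4 against 15.8 FPKM.

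Among the corepressors of the MXD proteins and MNT, 6 of 8 were lower in the KO ESC (median -0.47, and -0.26 after centring), against 65.2% of genes at 5 FPKM, and 1 was at least 2-fold higher, against 7.49% of all genes measured. This was Sin3b, a scaffold of the SIN3 complex, at 150 FPKM in the KO ESC against 54.0 FPKM in the Flox/Flox ESC, while its paralogue Sin3a had a difference of -0.50. In the PF pair 6 of 8 were lower in the 4N- line (median -0.15, and 0.02 after centring), against 75.0% of genes at 5 FPKM, with the corepressor gene Ncor1 at 21.2 against 26.7 FPKM. In the TTF pair 5 of 8 were higher in the 4N- line (median 0.06), against 53.2% of genes at 5 FPKM, with Sin3a at 45.9 against 52.1 FPKM. Of the 12 genes listed as MYC coactivators none was 2-fold different in any comparison. The medians were -0.12, -0.17 and 0.05 in the ESC, PF and TTF comparisons, or 0.08, 0.00 and 0.04 after centring. This list includes Zbtb17, the gene of MIZ1, a partner of MYC in repression, with differences of 0.52, -0.14 and 0.10. The largest ESC differences were those of Ruvbl1, an ATPase gene, at 12.1 FPKM in the KO ESC against 23.6 FPKM in the Flox/Flox ESC, and of Actl6a, an actin-related protein gene, at 43.7 against 80.4 FPKM. Ruvbl1 shares 56.2% of its 50-base stretches with another annotated gene. The 3 genes of the parallel MLX branch had medians of 0.29, -0.16 and 0.17, the PF median being 0.00 after centring, and Mlx itself had 17.4 FPKM in the KO ESC against 20.8 FPKM in the Flox/Flox ESC and 19.9 FPKM in the 4N- PF line against 29.4 FPKM in the 4N+ PF line.

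Of 12 genes acting on MYC protein turnover, 2 were at least 2-fold lower in the KO ESC (median -0.26, and -0.06 after centring), against 3.72% of all genes measured and 4.33% of those at 5 FPKM in both libraries. They were Usp28, a deubiquitinase gene, at 26.4 FPKM in the KO ESC against 68.7 FPKM in the Flox/Flox ESC, and Set, which encodes a phosphatase inhibitor, at 25.8 against 64.2 FPKM. Set shares 32.7% of its 50-base stretches with another annotated gene. Usp28 was also among the largest differences of this list in the iPSC, at 50.1 FPKM in the 4N- PF line against 73.6 FPKM in the 4N+ PF line and 32.3 FPKM in the 4N- TTF line against 45.3 FPKM in the 4N+ TTF line. The medians of the list were -0.11 in the PF pair (0.06 after centring) and 0.00 in the TTF pair. Of 11 LIF and Wnt pathway genes upstream of Myc, 3 were at least 2-fold lower in the KO ESC (median -0.06, and 0.15 after centring), against the same 3.72% and 4.33%. The Wnt effector gene Lef1 had 3.09 FPKM in the KO ESC against 10.7 FPKM in the Flox/Flox ESC, the LIF receptor gene Lifr 4.69 against 11.6 FPKM, and Socs3, a feedback inhibitor induced by LIF, 13.7 against 29.5 FPKM. In the iPSC none of these 11 was 2-fold different, with medians of -0.24 in the PF pair (-0.07 after centring) and -0.04 in the TTF pair.

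Of 7646 genes with a mean of at least 5 FPKM, the closest to Myc over the 6 libraries, by Euclidean distance between centred log2(FPKM + 1) profiles, was Dnmt3a, a de novo DNA methyltransferase gene, at 0.43. It had 13.3 FPKM in the KO ESC against 35.8 FPKM in the Flox/Flox ESC, 11.4 against 23.9 FPKM in the 4N- and 4N+ PF lines, and 26.1 against 21.1 FPKM in the 4N- and 4N+ TTF lines. Snora41 (0.45), a small nucleolar RNA, Ina (0.49), an intermediate filament gene, Slc7a7 (0.54), an amino acid transporter gene, and Plac8 (0.54) followed. The closest to Mycn was Anp32b, a nuclear histone chaperone gene, at 0.15, with 110 FPKM in the KO ESC against 275 FPKM in the Flox/Flox ESC, 115 against 154 FPKM in the 4N- and 4N+ PF lines, and 218 against 249 FPKM in the 4N- and 4N+ TTF lines. Hsph1 (0.22), a heat shock protein gene, Gm14139 (0.22), Zbtb8a (0.24), a zinc finger gene, and Sms (0.27), the spermine synthase gene, followed. The 6 libraries share their pairing into tables, and these distances carry no test.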

How the data were processed

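Messenger RNA was sequenced from 6 cultures, and the authors deposited 3 tables of 2 libraries each. Reads passed through CASAVA and TopHat2 on mm9, per the submitters' processing notes. Not given in the sources used here are the versions, the annotation, strand use and the quantifying program. Library values were read as FPKM deposited by the authors. Per the file headers each table also holds the authors' call with its q-value and p-value. The deposited log2 fold change was not used. It runs in the opposite direction and holds replaced infinite values.

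Members and gene lists were chosen with earlier results of these data known. The 9 network lists hold 125 genes, of which Tfap4 is not analysed here. Named genes were those at least 2-fold different and at 5 FPKM, up to 4 per list, or otherwise the 2 with the largest difference. Tex101, Cdkn2b and the ESC values of Sin3a, Cdkn1b and Ndrg2 were added after their values were seen. The values given for Zbtb17, Ascl2, Cdx2, Foxa2 and Postn also fall outside this rule. Not every gene that met the rule is given with its values.

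Differences were taken as log2(FPKM + 1) within a table, over genes at 1 FPKM in at least 1 library. With 1 library per condition no p-value was computed for these differences here. The iPSC libraries entered a limma fit (version 3.58.1, R 4.3.3, trend) blocked on parental cells, and genes were called at a Benjamini-Hochberg adjusted p below 0.05. The labels do not say that lines of 1 parental cell type share an animal. The SE and p-values come from a variance drawn towards the trend over all genes. With 1 residual degree of freedom, they do not measure the spread between the lines for each gene alone. Effective depth was recovered from intronless receptor genes, whose values were whole multiples of 1 fragment (100% within 0.05), and gave estimated fragments and 95% intervals that cover counting error only. No count test was run, because the lengths the authors used for spliced genes are unknown. Sequences are from RefSeq. Alternatives were another pseudocount, other minimum values, centring, no block, leaving out each library and removing small RNA genes.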

Additional observations from a re-analysis of the deposited data

Results flagged for a closer look

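The 2 iPSC pairs moved in opposite directions for 2 members whose counting intervals lay off 1 in both pairs. For Myc the 4N- minus 4N+ difference in log2(FPKM + 1) was -1.13 in the PF pair and 0.73 in the TTF pair, so the PF pair minus the TTF pair was -1.85. For Mga it was 0.13 in the PF pair and -0.23 in the TTF pair, a gap of 0.36. Each pair has 1 line per label, and neither gap was tested.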

How the results depend on the processing

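With 1 library per condition the limits are those of single lines, and intervals cover counting error only. At a minimum of 5 FPKM the members at least 2-fold higher in the KO ESC were 0, since Mxd4 lay below it. After centring, 1 member was at least 2-fold lower in the KO ESC and 0 in the 4N- line of the PF pair, since Myc dropped under 2-fold in both. Centring also turned the sign of 4 of 29 member differences, to 0.12 for Mxi1 in the ESC and to 0.15 for Mycl1, 0.11 for Max and 0.06 for Mnt in the PF pair. The other pseudocount (29 differences), no filter (29) and a minimum of 5 FPKM (16) turned 0. The limma calls over all genes were 3 with no replicate block, 0 with no filter on low values (602 at an unadjusted p under 0.05), 67 at a minimum of 5 FPKM and 94 without small RNA genes. They ranged from 8 without the 4N- PF line to 22 without the 4N- TTF line when 1 library was left out, fits that have no block and take the lone line to vary like the others. The cause was not tested. The fit at a minimum of 5 FPKM held 7 of the 10 members, without Mxd1, Mxd3 and Mxd4. The fit without the 4N- TTF line held 9, without Mxd1. No member was called in any of these fits. Without the 4N- TTF line Myc had a limma difference of -0.99 (adjusted p = 0.9998) and was the 1 member at an unadjusted p under 0.05.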
